A study of Homo sapiens with 6 samples.

Results

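The ERBB receptors are the 4 receptor tyrosine kinases EGFR, ERBB2, ERBB3 and ERBB4, and EGFR is the target of the inhibitor WZ4002, to which the cells of this study had become resistant. They were taken as all probe sets (groups of short array oligonucleotides summarized to 1 value) that the platform's annotation assigns to 1 of these genes, each kept apart, which gave 4 of 11963 genes and 12 of 22215 probe sets: 6 for EGFR and 2 each for ERBB2, ERBB3 and ERBB4. Transcripts were measured on 1 oligonucleotide array per sample in 3 samples of WZR6 and 3 samples of parental cells, so that n = 3 in each group throughout. WZR6 is a single clone, numbered 6 by its name, picked from NCI-H1975 cells that had survived rising concentrations of WZ4002, and it is labelled WZ4002 resistant. The parental group is the NCI-H1975 line itself, derived from a human non-small cell lung cancer with mutant EGFR, labelled WZ4002 sensitive. Both groups grew exponentially in RPMI medium with 5% FBS. The labels do not say whether the drug was present when WZR6 was harvested, nor whether the 3 samples of a group came from separate cultures, so p-values measure the spread between these samples, which may be technical.

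ERBB receptors sit in the plasma membrane and signal as pairs: a bound ligand lets 2 receptors join, 1 kinase domain activates the other, and phosphorylated tails recruit adaptors that feed the RAS-ERK and PI3K-AKT pathways. EGFR binds ligands such as EGF and transforming growth factor alpha. ERBB2 has no known ligand of its own and is the preferred partner of the others. ERBB3 binds neuregulins, has a nearly inactive kinase and couples strongly to PI3K through its partner, while ERBB4 binds neuregulins, has an active kinase and can release its intracellular part after cleavage. In EGFR-mutant lung cancer, mutant EGFR drives growth, and ERBB2 and ERBB3 are known for their part in how such cells respond to EGFR inhibitors.

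The arrays were close to each other within a group, with correlations across probe sets between 0.9978 and 0.9983, against 0.9815 to 0.9826 between groups. Of the lung adenocarcinoma and epithelial markers NKX2-1, KRT7, KRT8, KRT18, KRT19, EPCAM and CDH1, 6 of 7 measured genes were called lower in WZR6, against 23.5% of all genes called lower and 24.5% called higher in the fit with 1 probe set per gene. EPCAM averaged 6.17 on the log2 scale in WZR6, against 12.43 in parental cells, and KRT19 11.13 in WZR6, against 12.84 in parental cells. KRT7 and KRT8 were also called lower, and KRT18, at 14.02 in WZR6 and 14.14 in parental cells, was not called. Of the other cell types, 3 of 5 leukocyte markers were lower in WZR6, 1 of 6 fibroblast markers was higher and 2 lower, and 1 of 5 endothelial markers was higher, beside 48% of all genes called in either direction; the fibroblast and endothelial shares, 50% and 20%, lay near or below that background. The mean log2 intensity of the leukocyte list ranged from 5.68 to 5.85 in WZR6 arrays and from 6.42 to 6.48 in parental arrays. That of the fibroblast list ranged from 6.28 to 6.40 in WZR6 and from 6.75 to 6.81 in parental arrays, and that of the endothelial list from 5.54 to 5.65 in WZR6 and from 5.42 to 5.47 in parental arrays. In both groups 1 of 5 leukocyte markers (PTPRC), 2 of 6 fibroblast markers (COL3A1 and LUM) and 2 of 5 endothelial markers (KDR and TEK) averaged below 5.27, the lower quartile of the log2 table. Others lay above it, such as CD14 at 7.49 in WZR6 and 8.45 in parental cells, COL1A2 at 9.73 in WZR6 and 10.29 in parental cells, COL1A1 at 6.60 in WZR6 and 9.60 in parental cells, and CDH5 at 6.35 in WZR6 and 5.47 in parental cells. The part of these lists in the receptor values was not tested. Both groups are cultures, of the NCI-H1975 line or of a clone picked from it. Bulk arrays of such cultures cannot tell a change in all cells from a change in some.

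Transcripts of EGFR, ERBB2 and ERBB3 were lower in WZR6 than in parental cells, and ERBB4 did not pass the test. On the probe set of each gene with the highest mean over all 6 arrays, called its brightest here, EGFR fell 1.75-fold and ERBB2 1.53-fold. The measured intensities of ERBB3 differed 7.78-fold, but its WZR6 signal lay below the lower quartile of all values, so the size of that decrease is uncertain. In WZR6 alone another EGFR probe set, 201984_s_at, was brighter, at 9.87 against 9.85, and it fell 1.36-fold. The choice for EGFR thus rested on the parental arrays and took the larger decrease. In the fit over all probe sets (limma, where a call means a Benjamini-Hochberg adjusted p under 0.05), 5 of 12 ERBB probe sets were called lower and 0 higher, and 6 lower and 0 higher had an unadjusted p under 0.05. Calls were frequent in this comparison: 41.1% of all probe sets were called, 19.5% lower and 21.6% higher, so the share of ERBB probe sets called, 41.7%, lay near the background. A decrease of at least 2-fold was called for 1 of 12, an ERBB3 probe set, against 2.65% of all. The groups did not overlap for 5 of 12 ERBB probe sets, against 51.1% of all probe sets in either direction. All 5 lay lower in WZR6, and 23.6% of all probe sets were apart in that direction. The median log2 difference was -0.15 over the 12 and 0.03 over all probe sets tested.

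**Figure D1:**
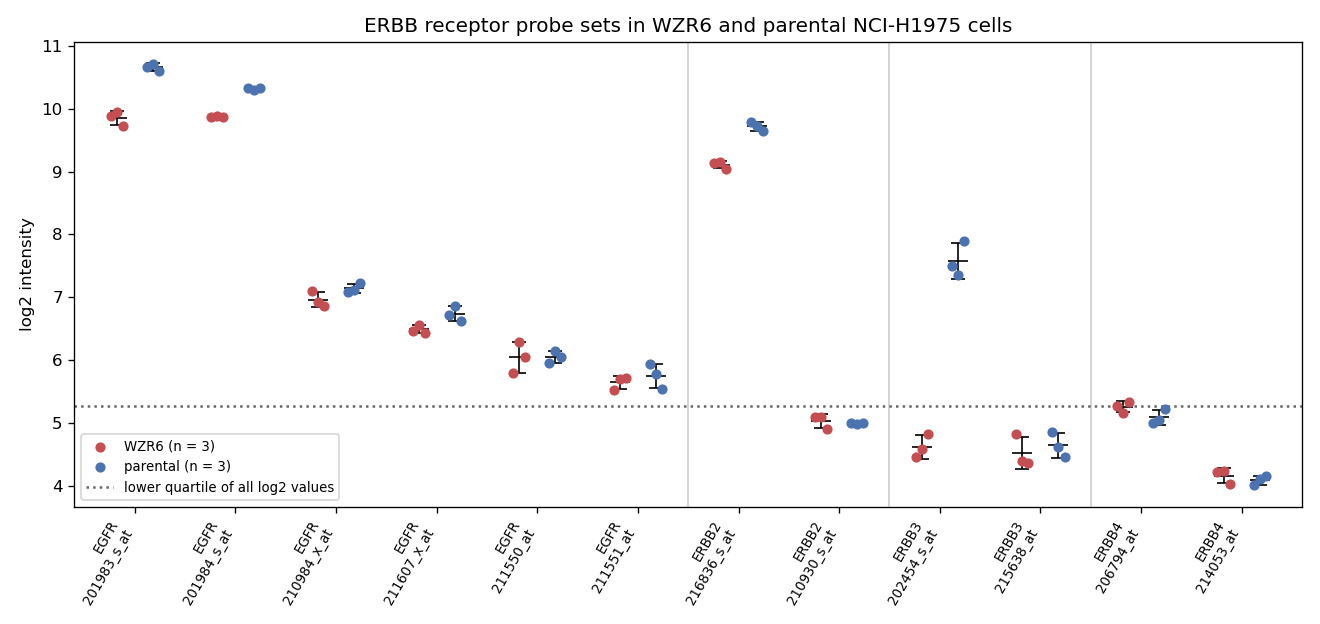
log2 intensity (vertical axis) of the 12 ERBB probe sets, with WZR6 arrays in red to the left of parental arrays in blue; points are arrays, black bars the mean and SD (n = 3 each), and the dotted line the lower quartile of all log2 values, 5.27. WZR6 lies apart from and below parental cells for 2 bright and 1 dimmer EGFR probe sets and for 1 probe set each of ERBB2 and ERBB3, while the remaining 7 overlap.

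The EGFR promoter is known to be rich in G and C and to lack a TATA box. RefSeq on GRCh38.p14 gave upstream windows for 3 of 4 receptors, and the 250 bases before the outermost start are shown for EGFR and ERBB2, which fell, and for ERBB4, which was not called. They lie at chr7:55018767-55019016 on the plus strand for EGFR, chr17:39687844-39688093 on the plus strand for ERBB2 and chr2:212538803-212539052 on the minus strand for ERBB4, and capitals mark matches, on either strand, to any of the 5 motifs searched.
EGFR: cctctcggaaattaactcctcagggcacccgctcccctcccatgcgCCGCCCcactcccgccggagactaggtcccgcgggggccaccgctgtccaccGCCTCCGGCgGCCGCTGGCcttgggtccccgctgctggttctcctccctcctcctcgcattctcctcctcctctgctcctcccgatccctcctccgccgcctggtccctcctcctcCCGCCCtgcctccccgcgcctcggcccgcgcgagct
ERBB2: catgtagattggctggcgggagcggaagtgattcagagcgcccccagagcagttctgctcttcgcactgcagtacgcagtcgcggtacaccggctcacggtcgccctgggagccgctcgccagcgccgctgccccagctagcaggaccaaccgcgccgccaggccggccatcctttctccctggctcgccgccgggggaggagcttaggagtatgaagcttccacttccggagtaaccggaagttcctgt
ERBB4: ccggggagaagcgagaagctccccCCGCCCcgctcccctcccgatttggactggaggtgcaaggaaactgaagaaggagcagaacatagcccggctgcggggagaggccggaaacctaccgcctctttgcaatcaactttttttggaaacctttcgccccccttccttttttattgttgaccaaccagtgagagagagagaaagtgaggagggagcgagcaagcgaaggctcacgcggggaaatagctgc
The motifs were the GC box of SP1 (GGGCGG), an AP-2 motif (GCCNNNGGC), an EGR1 motif (GCGNGGGCG), a FOXO motif (GTAAACA) and the TATA box (TATAAA), whose factors, the TATA box apart, are known from reports on ERBB gene transcription. The EGFR window held 2 GC boxes and 2 AP-2 motifs, and the 2 AP-2 matches stand side by side without overlap, the first from base -152 to -144 and the second from base -142 to -134 before the start. The ERBB4 window held 1 GC box, and the ERBB2 window held no match to the 5 motifs. That window belongs to the outermost RefSeq start of ERBB2, and which start these cells use was not analysed here. A GC box was present in 42.6% of 35116 such windows, the AP-2 motif in 19.8%, the EGR1 motif in 8.41%, the FOXO motif in 2.98% and the TATA box in 10.7%. The GC content was 73.6% for EGFR, 65.6% for ERBB2 and 57.2% for ERBB4, beside a median of 58% over all windows. A second EGFR start inside the gene, with a window at chr7:55109589-55109838, had 38.8% GC and 2 TATA boxes in its place. These matches describe letters only.

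EGFR, the drug's target, was lower in WZR6 on its bright probe sets and differed little on its dim ones. On the brightest, 201983_s_at, the log2 intensities were 9.89, 9.94 and 9.72 in WZR6, against 10.67, 10.72 and 10.60 in parental cells. Every WZR6 array lay below every parental array, and the difference of -0.81 ± 0.07 (SE) equals 1.75-fold (95% interval 1.56 to 1.97, adjusted p = 0.000129 in limma). The second, 201984_s_at, had 9.86, 9.89 and 9.87 in WZR6, against 10.33, 10.30 and 10.32 in parental cells. Arrays of 1 group were within 0.03 of each other on this probe set, and the groups were again apart, by -0.45 ± 0.04 or 1.36-fold (1.27 to 1.46, adjusted p = 0.000220 in limma). Both probe sets are of the type _s_at, whose oligonucleotides can match several transcripts.

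The other 4 EGFR probe sets gave weaker signals in both groups. The probe set 211607_x_at had 6.47, 6.56 and 6.44 in WZR6, against 6.72, 6.86 and 6.62 in parental cells. The groups were narrowly apart, by -0.25 ± 0.07 (SE, limma adjusted p = 0.0328), and the call ended when WZR6 replicate 1 (adjusted p = 0.0921 in limma), WZR6 replicate 3 (0.0964), parental replicate 1 (0.0709) or parental replicate 2 (0.0812) was left out. Under its 13 alternatives, the floor at the median apart, the adjusted p lay between 0.0100 and 0.0964 in limma. That floor, 7.38, lies above all values of this probe set, so its difference there was fixed at 0. The probe set 210984_x_at had 7.10, 6.92 and 6.86 in WZR6, against 7.08, 7.11 and 7.22 in parental cells. Its groups overlapped through WZR6 replicate 1, and the difference of -0.18 ± 0.08 was not called (adjusted p = 0.102 in limma); without that array it was -0.25 and called (adjusted p = 0.0334). Probe sets of the type _x_at can bind transcripts of other, similar genes.

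The probe set 211550_at had 5.79, 6.29 and 6.04 in WZR6, against 5.96, 6.14 and 6.05 in parental cells. The WZR6 arrays spanned the whole parental range, and the difference was -0.01 (95% interval -0.30 to 0.29). The last, 211551_at, had 5.53, 5.69 and 5.71 in WZR6, against 5.93, 5.77 and 5.54 in parental cells. These groups overlapped too, with a difference of -0.10 (-0.36 to 0.15). The intervals of these 2 probe sets exclude the -0.81 of the brightest one. Which EGFR exons or transcript forms each probe set detects was not analysed here.

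**Figure D2:**
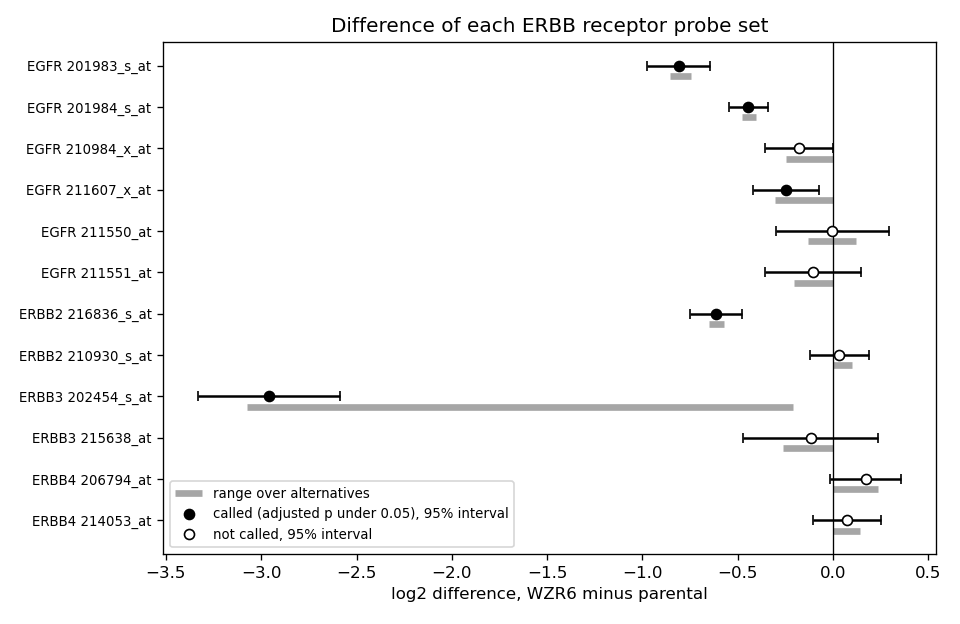
log2 difference, WZR6 minus parental (horizontal axis), of each ERBB probe set with its 95% interval; filled points were called and open ones were not, and grey bars span the values under the alternative settings. The decrease of ERBB3 202454_s_at, at -2.96, is the largest of the 12. Its grey bar reaches -0.21 with values floored at the median, a floor near its parental values. The same floor lies above all values of EGFR 211607_x_at, so the grey bar of that probe set reaches 0.

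ERBB2, the shared partner of the family, was lower in WZR6 on its bright probe set. On 216836_s_at the log2 intensities were 9.13, 9.15 and 9.04 in WZR6, against 9.78, 9.73 and 9.65 in parental cells. All WZR6 arrays lay below all parental arrays, by -0.61 ± 0.06 (SE) or 1.53-fold (95% interval 1.39 to 1.68, adjusted p = 0.000185 in limma). The other probe set, 210930_s_at, had 5.09, 5.10 and 4.90 in WZR6, against 5.00, 4.98 and 5.00 in parental cells. It lay below the lower quartile in every array, its groups overlapped, and the difference was 0.03 (-0.12 to 0.19).

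ERBB3, the neuregulin receptor, showed the largest difference of the family. On 202454_s_at the log2 intensities were 4.45, 4.59 and 4.82 in WZR6, against 7.49, 7.35 and 7.90 in parental cells, or intensities of 21.9, 24.0 and 28.3 against 180, 163 and 239 on the linear scale. The 3 WZR6 arrays all lay below the lower quartile of all values, and the parental arrays close to or above the median of 7.38. The difference was -2.96 ± 0.16 (SE), a ratio of 7.78 of measured intensities (95% interval 6.01 to 10.1, adjusted p = 1.6e-05 in limma). With all values raised to at least the lower quartile, a setting chosen after seeing the data, the difference was -2.31 and still called (adjusted p = 0.00075 in limma). The call ended with values raised to the median, where the difference was -0.21 (adjusted p = 0.530 in limma). That floor lies near the parental values themselves, so little difference could remain whatever the WZR6 level. The deposited values come without detection calls, so how much ERBB3 transcript WZR6 kept was not measured.

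The second ERBB3 probe set, 215638_at, had 4.82, 4.39 and 4.37 in WZR6, against 4.86, 4.62 and 4.46 in parental cells. All 6 arrays lay below the lower quartile and the groups overlapped, with a difference of -0.12 (95% interval -0.47 to 0.24). The decrease of ERBB3 thus rests on 1 probe set.

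ERBB4 was dim in both groups. On 206794_at the log2 intensities were 5.28, 5.16 and 5.34 in WZR6, against 4.99, 5.05 and 5.22 in parental cells. The groups overlapped, and the difference of 0.17 ± 0.08 (SE) was not called (adjusted p = 0.133 in limma), although without parental replicate 3 it was 0.24 and called (adjusted p = 0.0432). The probe set 214053_at had linear intensities of 18.6, 18.8 and 16.2 in WZR6, against 16.1, 17.1 and 17.8 in parental cells, which overlapped, with a log2 difference of 0.07 (95% interval -0.10 to 0.25). Both ERBB4 probe sets averaged below the lower quartile in each group.

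The changes of the receptors were compared with each other array by array, on the brightest probe set of each gene, in 6 pairs. With 3 arrays against 3 the exact two-sided permutation test cannot give a p below 0.1, and every one of the 6 pairs gave that smallest p (0.1 after adjustment over the pairs). The log2 difference of ERBB3 was more negative than that of EGFR by 2.15 and than that of ERBB2 by 2.35, and its 95% interval, -3.33 to -2.59, did not overlap those of EGFR (-0.98 to -0.64) and ERBB2 (-0.75 to -0.48). The difference of EGFR was more negative than that of ERBB2 by 0.20, and these intervals overlapped. This order depends on the probe set: 201984_s_at, the other bright EGFR probe set, differed by -0.45, against -0.61 for ERBB2. As means of all probe sets of a gene, EGFR differed by -0.30 and ERBB2 by -0.29. ERBB4, at -0.02 to 0.36, overlapped none of the other intervals. Among 18 pairs of probe sets of 1 receptor, the adjusted exact p lay between 0.18 and 0.7, and the intervals of 8 pairs did not overlap, 5 of them involving EGFR 201983_s_at.

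Of the 10 measured genes nearest to EGFR 6 were lower, as were 6 of 10 beside ERBB3, with median log2 differences of -0.40 and -0.13. No gene beside ERBB3 or ERBB2 had as negative a difference as the receptor itself. The 5 measured genes on each side of each receptor were taken in RefSeq order, in a fit with 1 probe set per gene in which 48% of 11963 genes were called, 23.5% lower and 24.5% higher. Beside EGFR on chromosome 7, 6 of 10 genes fell, 0 rose and 4 were not called, with a median log2 difference of -0.40. The nearest on 1 side, COBL, an actin nucleator, had 8.93, 8.84 and 8.72 in WZR6, against 9.60, 9.69 and 9.74 in parental cells, and the nearest on the other, LANCL2, had 9.14, 9.15 and 9.01 in WZR6, against 9.53, 9.57 and 9.54 in parental cells. Both sets of groups were apart, by -0.85 ± 0.07 (SE, limma adjusted p = 7.1e-05) for COBL and by -0.45 ± 0.05 (limma adjusted p = 0.000417) for LANCL2. GRB10 also fell, as did VOPP1, MRPS17 and NIPSNAP2, named after their values were seen. Of the 10 neighbours, 3 had a more negative difference than EGFR on its brightest probe set. The other bright EGFR probe set, 201984_s_at, differed by only -0.45, and this count was not made for it. The 4 that were not called, named after their values were seen, were ZPBP (0.13 ± 0.11), IKZF1 (0.10 ± 0.10), DDC (0.05 ± 0.11) and PSPH (-0.33 ± 0.14). DNA copy number was not analysed here.

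Beside ERBB2 on chromosome 17, 3 of 10 genes fell, 1 rose and 6 were not called, with a median of -0.06. PGAP3, an enzyme of GPI anchor remodelling next to ERBB2, differed by -0.07 ± 0.05 (SE), and GRB7 on the other side, an adaptor that binds ERBB2, fell by 0.50 on the log2 scale ± 0.16 (limma adjusted p = 0.0346). GRB7 had 6.02, 6.37 and 5.71 in WZR6, against 6.49, 6.64 and 6.48 in parental cells. Beside ERBB3 on chromosome 12, 6 of 10 fell, 1 rose and 3 were not called, but the differences lay between -0.41 and 0.31, with a median of -0.13, and ERBB3 differed from that median by -2.83. Its nearest neighbours were IKZF4, a zinc finger factor, at -0.06 ± 0.08, and PA2G4, which encodes an ERBB3-binding protein, at -0.28 ± 0.05 (limma adjusted p = 0.00532). Beside ERBB4 on chromosome 2, 4 of 10 fell, 1 rose and 5 were not called, with a median of -0.10. CPS1-IT1 and IKZF2, the nearest, differed by 0.11 ± 0.06 and -0.02 ± 0.07.

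**Figure D3:**
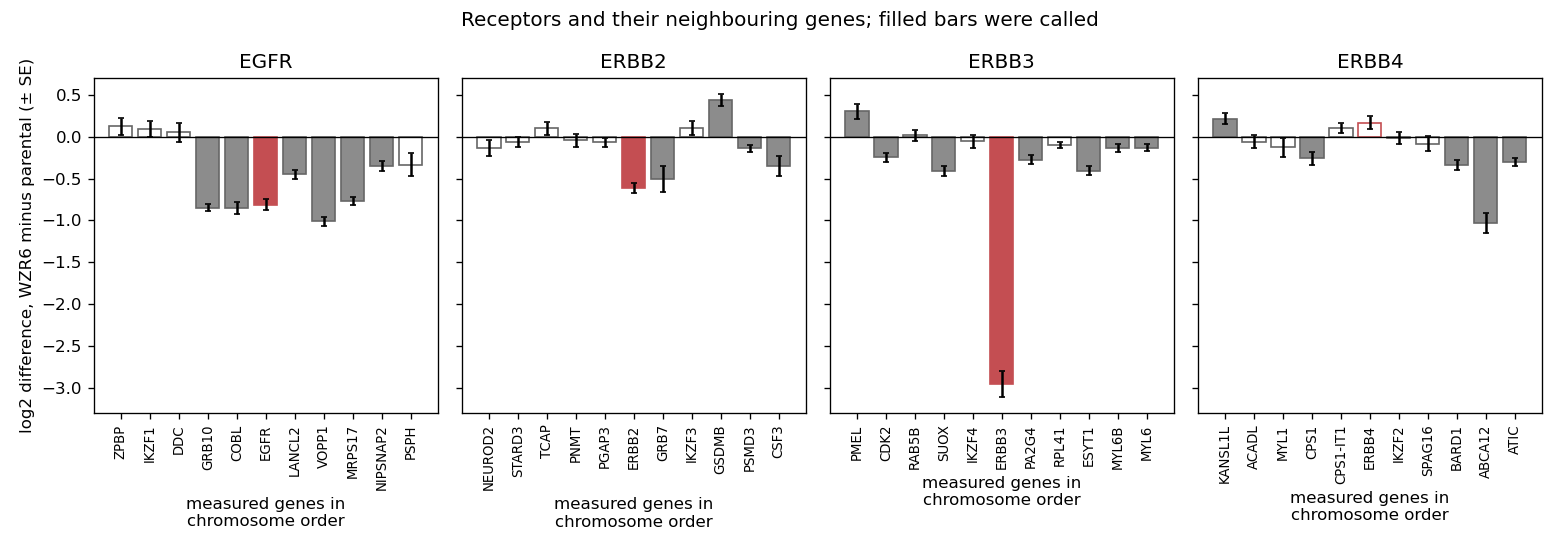
log2 difference, WZR6 minus parental, ± SE (vertical axis) of each receptor (red) and of the 5 measured genes on each side of it in chromosome order; filled bars were called. EGFR stands in a run of 7 adjacent filled bars below 0, while ERBB3, at -2.96, stands alone among neighbours between -0.41 and 0.31.

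The genes most like each receptor were those whose log2 profile over the 6 arrays, centred on its own mean, lay at the smallest root mean square distance, out of 11963 genes. Each gene was represented by its brightest probe set over the 6 arrays, which for EGFR was 201983_s_at. For EGFR they were ZNF202, RNASEH1 and LLGL2, a cell polarity gene, at distances of 0.03, 0.04 and 0.05 on the log2 scale. For ERBB2 they were WIPI2, an autophagy gene, CD2BP2 and CCS, the copper chaperone of superoxide dismutase, each at 0.02. For ERBB3 the distances were larger, 0.09 for the vitamin D hydroxylase CYP24A1, 0.14 for the metallothionein MT1M and 0.15 for SCEL, a protein of the cornified envelope. CYP24A1 averaged 4.04 ± 0.12 (SD) in WZR6 and 7.11 ± 0.20 in parental cells. For ERBB4 they were DTWD1, CNTN6 and BMP2K, at 0.02, 0.02 and 0.03, none of them called. With 2 groups, likeness over 6 arrays mostly reflects a difference of similar size.

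Around the receptors, most measured ligands fell, and each of the other pathway lists held genes that rose and genes that fell. Of 7 measured ligands 6 fell, 0 rose and 1, NRG2, named after its value was seen, was not called, against 23.5% of all genes called lower and 24.5% higher. The median difference of the measured ligands was -0.74, against 0.02 over all genes. The list held 11 ligands, but AREG, EPGN, NRG3 and NRG4 had no probe set annotated to that gene alone and were not measured. EGF and BTC, 2 of the 6 and named after their values were seen, averaged 5.25 and 4.95 in WZR6, below the lower quartile, and the count that fell was 4 with values raised to the median and 5 when all probe sets of each gene were averaged. EREG (epiregulin), TGFA and the neuregulin NRG1 differed by -4.06 ± 0.12 (SE), -2.65 ± 0.13 and -0.77 ± 0.05, so ligands of both EGFR and ERBB3 were among them. These are the brightest probe sets: the other TGFA probe sets differed by -1.12, called, and -0.14, not called (limma adjusted p = 0.291), and of the other 5 NRG1 probe sets 2 were called at -0.73 and 3 were not, at -0.23, -0.14 and 0.09. HBEGF, counted among the 6, is uncertain, since another of its probe sets was called in the opposite direction; it was named after its value was seen.

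Of 24 adaptors and proximal effectors 8 fell, 6 rose and 10 were not called (median -0.07), so that 58.3% were called, beside 48% of all genes. GRB14, an adaptor that binds receptor tyrosine kinases, fell by 1.24 ± 0.08 (SE), the related GRB10 by 0.85 ± 0.05 and the RAS exchange factor SOS1 by 0.58 ± 0.05, all on the log2 scale. GRB10 is also 1 of the neighbours of EGFR above, and its other 3 probe sets differed by -0.14, -0.27 and -0.45. The kinase SRC, named after its value was seen, rose by 0.58 ± 0.05.

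Of 18 genes of receptor inhibition and turnover 5 fell, 4 rose and 9 were not called (median 0.01), so that 50% were called, near the 48% of all genes. CBLC, an epithelial ubiquitin ligase of the CBL family that acts on EGFR, had 5.92, 6.05 and 6.02 in WZR6, against 8.18, 8.58 and 7.80 in parental cells. These groups were far apart, by -2.19 ± 0.18 (SE, limma adjusted p = 8.37e-05), while its relatives CBL and CBLB were not called, at -0.08 ± 0.10 and -0.14 ± 0.08. PTPN12, a tyrosine phosphatase, fell by 0.58 ± 0.05 and WWP1, a ubiquitin ligase known to act on ERBB4, by 0.51 ± 0.05 on the log2 scale. LRIG1, a membrane inhibitor of the family, differed by 0.16 ± 0.06 and was not called (limma adjusted p = 0.070). CBL, CBLB and LRIG1 were named after their values were seen.

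Of 12 trafficking genes 2 fell, 4 rose and 6 were not called (median -0.01), again 50% called, near the 48% of all genes. The late endosomal RAB7A and the clathrin heavy chain CLTC fell by 0.41 ± 0.05 (SE) and 0.34 ± 0.04, and EPS15, an endocytic substrate of EGFR, rose by 0.40 ± 0.10. RAB11A, counted among those that rose and named after its value was seen, is uncertain, since another of its probe sets was called in the opposite direction. The count that rose was 2 when WZR6 replicate 1, WZR6 replicate 2 or parental replicate 3 was left out. All 7 chaperones and scaffolds were called, 3 higher and 4 lower (median -0.23), beside 48% of all genes called. HSP90B1, the chaperone of the endoplasmic reticulum, rose by 0.67 ± 0.12 on a probe set of the type _x_at, the ERBB2-binding scaffold ERBIN fell by 0.37 ± 0.08, and MUC1, a mucin that binds ERBB receptors, fell by 2.38 ± 0.07. MUC1 had 8.48, 8.54 and 8.51 in WZR6, against 10.99, 10.76 and 10.94 in parental cells.

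Of 9 genes of receptor and ligand cleavage 3 rose, 3 fell and 3 were not called (median 0.03), so that 66.7% were called, beside 48% of all genes. The gamma-secretase subunit NCSTN rose by 0.49 ± 0.05 (SE), its catalytic subunit PSEN2 fell by 0.49 ± 0.07, and RHBDF1, a cofactor of the sheddase ADAM17, fell by 0.32 ± 0.08. ADAM10 and ADAM17, the sheddases of ERBB ligands, differed by 0.03 ± 0.05 and -0.07 ± 0.04 and were not called; they were named after their values were seen. Of 16 factors reported to regulate ERBB genes 4 rose, 3 fell and 9 were not called (median -0.01), so that 43.8% were called, below the 48% of all genes. EGR1, an activator reported at the EGFR promoter, fell by 1.11 ± 0.05 and the epithelial ETS factor EHF by 0.82 ± 0.08, with both groups of EHF below the lower quartile, while WT1, a reported repressor of EGFR, rose by 0.96 ± 0.07, with a parental mean below that quartile. TFAP2A, the AP-2 factor reported for ERBB2 and ERBB3, rose by 0.34 ± 0.05, and was named after its value was seen. Of the genes named here for the largest differences in their lists, CLTC, GRB10, NRG1, PSEN2, PTPN12, RAB7A, SOS1, TGFA and WT1 had at least 1 other probe set that was not called.

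**Figure D4:**
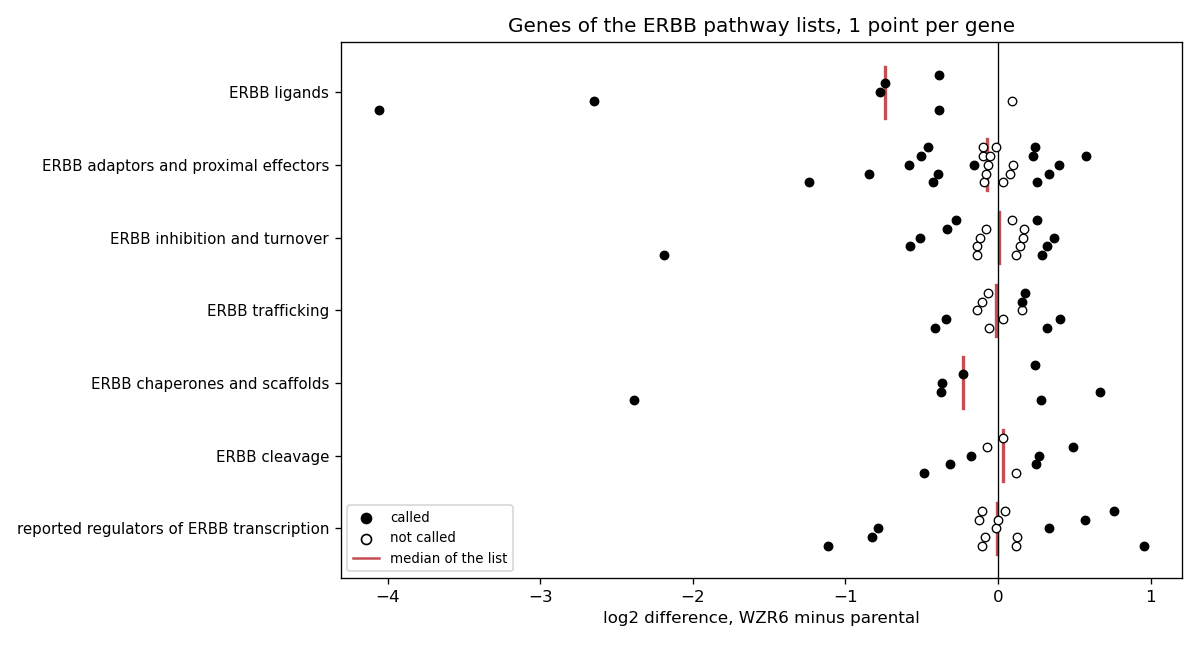
log2 difference, WZR6 minus parental (horizontal axis), of each measured gene in the 7 ERBB pathway lists, 1 point per gene, filled where called; red lines are list medians. All but 1 of the ligands lie below 0, and the other lists spread to both sides.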

How the data were processed

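The authors deposited linear intensities, 1 for each probe set of each array, and the submitters' processing notes name RMA, without version or settings. RMA subtracts background, equalizes the arrays' distributions and summarizes probes, which compresses differences near background. Intensities were converted to log2 without a pseudocount and not normalized again. Groups came from the sample titles. Of 22277 probe sets, 62 controls were left out, and 22215 were fitted with limma 3.58.1, under R 4.3.3, by lmFit and a two-sided eBayes test and adjusted together by Benjamini-Hochberg, with calls below 0.05. Neighbours and pathway lists used a fit of 11963 genes, each represented by its brightest probe set, with the highest mean log2 intensity over all 6 arrays. A choice over both groups can favour a probe set that is high in 1 group only. A probe set counted for a gene only where the annotation named that gene alone. Intervals have 95% confidence. The receptors, lists and tests were chosen with earlier results of these data known. Named genes were all receptor probe sets, the nearest neighbour on each side, the 3 most alike profiles and up to 3 called members per list with the largest differences; others are marked in the text. The model was tested on simulated data. Alternatives were other normalizations, filters, floors at the median and the lower quartile (the second added after seeing the data), another variance prior, a replicate block, other probe set rules and leaving out each array. Precision is limited by 3 arrays per group. Sequences came from RefSeq on GRCh38.p14, and figures from matplotlib 3.10.9.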

Additional observations from a re-analysis of the deposited data

How the results depend on the processing

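The decreases of EGFR 201983_s_at and 201984_s_at and of ERBB2 216836_s_at kept their direction and call in every alternative that retained them, with ranges of -0.86 to -0.75, -0.48 to -0.40 and -0.65 to -0.57. ERBB3 202454_s_at did so in all but the floor at the median of all values, where it differed by -0.21 (adjusted p = 0.530 in limma). That floor lies near its parental values, so little difference could remain. At the added floor ERBB3 differed by -2.31. With 1 value per gene as the mean of its probe sets, EGFR differed by -0.30, ERBB2 by -0.29 and ERBB3 by -1.54, all still called. EGFR 211607_x_at lost its call under median centring (-0.21), the intensity trend with robust variance (-0.25) and, added after seeing the data, the floor at the lower quartile (-0.25). The floor at the median lies above all its values and fixed its difference at 0, so no call could remain there. Leaving out each array gave EGFR 211607_x_at -0.30 to -0.18, EGFR 210984_x_at -0.25 to -0.13 and ERBB4 206794_at 0.12 to 0.24. The number of ERBB probe sets called lower was 3 among means at or above the median, 2 at or above the 75th percentile and 3 with the floor at the median, since fewer could differ there. It was 0 without the types _x_at and _s_at, where 5 ERBB probe sets remained and 0 had an unadjusted p under 0.05 in limma. It was 4 or 5, with 0 or 1 called higher, when an array was left out. Over the whole table, 2271 probe sets were called higher and 2004 lower at or above the 75th percentile, and 2232 and 2013 without those types, with fewer tested. With the replicate number as a block, EGFR 201983_s_at had an adjusted p of 0.00073, ERBB2 0.00117 and ERBB3 0.000134, and no ERBB call changed; same-numbered arrays deviated together with r of -0.01, 0.12 and 0.23, so the numbers were not taken as pairs. Among list counts, the 4 genes of inhibition and turnover called higher were 7 under median centring and under the intensity trend. With the floor at the median, the 8 adaptors called lower were 5 and the 4 trafficking genes called higher 2. At or above the 75th percentile, where fewer genes were tested, ligands called lower were 1 of 1 tested, adaptors 3 lower and 2 higher of 9, cleavage genes 0 lower of 4 and regulators 2 higher of 6. Without the types _x_at and _s_at, also with fewer tested, adaptors called lower were 5 of 19, genes of inhibition and turnover 1 of 11, trafficking genes 1 of 7 and cleavage genes 0 of 5, chaperones 2 lower and 1 higher of 3, and regulators 1 lower and 1 higher of 9. Signal near background limits ERBB3 in WZR6 and ERBB4 in both groups.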
